A study of Mus musculus with 6 samples.

Results

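NF-kB is a family of dimeric transcription factors, and 10 genes of its core circuit were followed through mouse bone marrow-derived macrophages (BMDMs) with and without the multikinase inhibitor regorafenib. The genes were chosen by name: the 5 subunit genes Nfkb1, Nfkb2, Rel, Rela and Relb, and 5 genes that are induced by NF-kB and feed back on it, Nfkbia, Nfkbie, Nfkbiz, Tnfaip3 and Bcl3. These are 10 of the 54446 gene IDs counted. The BMDMs came from BALB/c mice, and their mRNA was sequenced after the cells were left unpolarized (M0), polarized for 24 hours with IFN-γ at 20 ng/mL plus LPS at 50 ng/mL (M1), or polarized for 24 hours with IL4 at 20 ng/mL (M2). Each state was sequenced once as a control given DMSO, the solvent, and once with regorafenib at 1 µM, added 1 hour before polarization, so that there were 6 libraries and 1 library per group. All 6 libraries came from wild-type bone marrow of male mice 6 to 8 weeks of age that had been cultured for 7 days in medium with 20% L929-conditioned medium, a source of the macrophage growth factor CSF-1. How many animals stood behind a library is not given in the sources used here, and no pairwise difference has a replicate check.

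NF-kB dimers are held in the cytoplasm of resting cells by IκB proteins. Signals from Toll-like or TNF receptors activate the IκB kinase complex, IκB is degraded, and the dimers enter the nucleus. In the non-canonical branch the Nfkb2 precursor p100 is processed to p52, which pairs with RelB. Many genes of the circuit are NF-kB targets themselves, so that activation is followed by new inhibitor and new subunit. In macrophages this circuit drives the inflammatory response to LPS. The data are mRNA levels only. Protein, processing of p100 and nuclear location were not measured.

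On GRCm38, Nfkb1 lay at chr3:135584655-135691547 (minus strand), Nfkb2 at chr19:46304320-46312385 (plus) and Rel at chr11:23736847-23770970 (minus). Rela lay at chr19:5637483-5648130 (plus) and Relb at chr7:19606217-19629438 (minus). Of the inhibitors, Nfkbia lay at chr12:55489410-55492647 (minus), Nfkbie at chr17:45555703-45563169 (plus) and Nfkbiz at chr16:55811375-55838899 (minus). Tnfaip3 lay at chr10:19000910-19015657 (minus), and Bcl3 at chr7:19808462-19822770 (minus), on the chromosome of Relb. The exons of Nfkb2 overlap the antisense RNA AC114539.1 over 11.6% of their length and Psd over 6.52%, and 6.51% of the Bcl3 exon length overlaps the antisense gene Gm16175. Psd held between 2 and 7 counts per library and Gm16175 held 0 in every library. The libraries were made with a stranded kit, but which strand was counted is not stated, so reads of Nfkb2 and AC114539.1 may not be separated. Of the 100-base words in Nfkb2 transcripts 12.3% also occurred in another gene, and 0.365% of those of Bcl3 did, whereas those of the other 8 genes did not.

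Promoter sequence of RefSeq (GRCm38.p6, from 250 bases before to 50 bases after a gene's start) was on hand for 7 of the 10 genes, in 10 windows. These windows are shown because the circuit is defined by NF-kB acting on its own genes. The 10-base kappaB consensus, searched on both strands, matched in 8 of the 10 windows and in 6 of the 7 genes. Nfkb2 had several windows, and those at chr19:46305445-46305744 and chr19:46305680-46305979 overlap and share a match. The count of windows therefore holds that match more than once, and the count of genes does not. Of all 32851 windows 8.46% held a match, and of all 27025 genes with a window 9.55% did. A match is a description of the letters and not evidence of binding. Stretches of 5 upstream regions follow, 5′ to 3′ on the strand of the gene and without annotated exons of that gene, with bases of a match in capitals:
Nfkbia, chr12:55492648-55492797 (-): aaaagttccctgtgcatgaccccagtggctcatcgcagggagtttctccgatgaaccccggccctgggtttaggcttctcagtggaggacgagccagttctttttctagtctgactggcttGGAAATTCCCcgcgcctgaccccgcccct
Nfkbie, chr17:45555550-45555699 (+): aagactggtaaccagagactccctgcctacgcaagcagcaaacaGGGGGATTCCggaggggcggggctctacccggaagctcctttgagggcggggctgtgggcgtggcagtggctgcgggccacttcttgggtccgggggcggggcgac
Tnfaip3, chr10:19015411-19015547 (-): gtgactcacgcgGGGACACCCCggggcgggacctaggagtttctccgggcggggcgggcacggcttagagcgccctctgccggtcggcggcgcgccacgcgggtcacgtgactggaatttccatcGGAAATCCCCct
Rel, chr11:23770971-23771119 (-): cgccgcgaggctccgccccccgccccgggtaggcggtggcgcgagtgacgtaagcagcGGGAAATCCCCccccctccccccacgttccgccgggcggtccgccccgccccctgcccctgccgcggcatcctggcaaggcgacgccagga
Rela, chr19:5637391-5637482 (+): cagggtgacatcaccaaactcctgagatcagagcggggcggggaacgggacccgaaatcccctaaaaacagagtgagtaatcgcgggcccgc
In Nfkb2 and Bcl3 the first match lay in an annotated exon, and 30 bases around it are shown:
Nfkb2, chr19:46304688-46304717 (+): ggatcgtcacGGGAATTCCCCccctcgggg
Bcl3, chr7:19822734-19822763 (-): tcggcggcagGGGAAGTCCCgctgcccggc
The Nfkbia match began 29 bases before the start and the first of Nfkb2 39 bases before it. A further Nfkb2 match nearer the start lies outside the bases shown. Rela was the gene without a match in its window.

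The libraries held between 25359309 and 34898342 counts, and the TMM factors lay between 0.82 and 1.12. Levels are given below as CPM, that is, counts relative to library size, after this scaling. The macrophage markers Adgre1, Cd68, Csf1r and Lyz2 were between 348 and 42740 CPM in every library. Of the macrophage list Fcgr1 was lower with regorafenib in all 3 states (log2 ratios −1.48, −1.23 and −1.25 in M0, M1 and M2) and Aif1 stayed between 1.1 and 6.92 CPM. The neutrophil genes Ly6g, Elane, Ltf and Ngp held 0 to 2 counts each, whereas Mpo, which that list shares with myeloid progenitors, stood between 80.7 and 155 CPM. Camp, the sixth gene of the list, held 108 and 91 counts (4.18 and 3.78 CPM) in the M1 libraries and 0 or 1 in the other 4. Of the dendritic cell list Ccr7 stood at 30.2 and 34.3 CPM in the M1 libraries. The rest of that list was low there, Xcr1 at 1.39 and 4.23, Zbtb46 at 0.348 and 0.207 and Flt3 at 0.116 and 0.083 CPM. Nos2 stood at 15894 and 9196 CPM in the control and regorafenib M1 libraries and at no more than 1.79 CPM in the other 4. Of the same M1 list Il12b stood at 393 and 1113 CPM and Cd86 at 34.4 and 33.8 CPM in M1. Mrc1 stood at 664 and 461 CPM in M2 and at no more than 24.4 CPM elsewhere. Of the same M2 list Arg1 was also lower with regorafenib in M2 (597 and 36.4 CPM). Chil3 (10.4 and 24.1 CPM) and Retnla (25.8 and 120 CPM) were higher with it there. In bulk RNA a change in the share of cells that express a gene and a change in RNA per cell cannot be told apart.

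**Figure D1:**
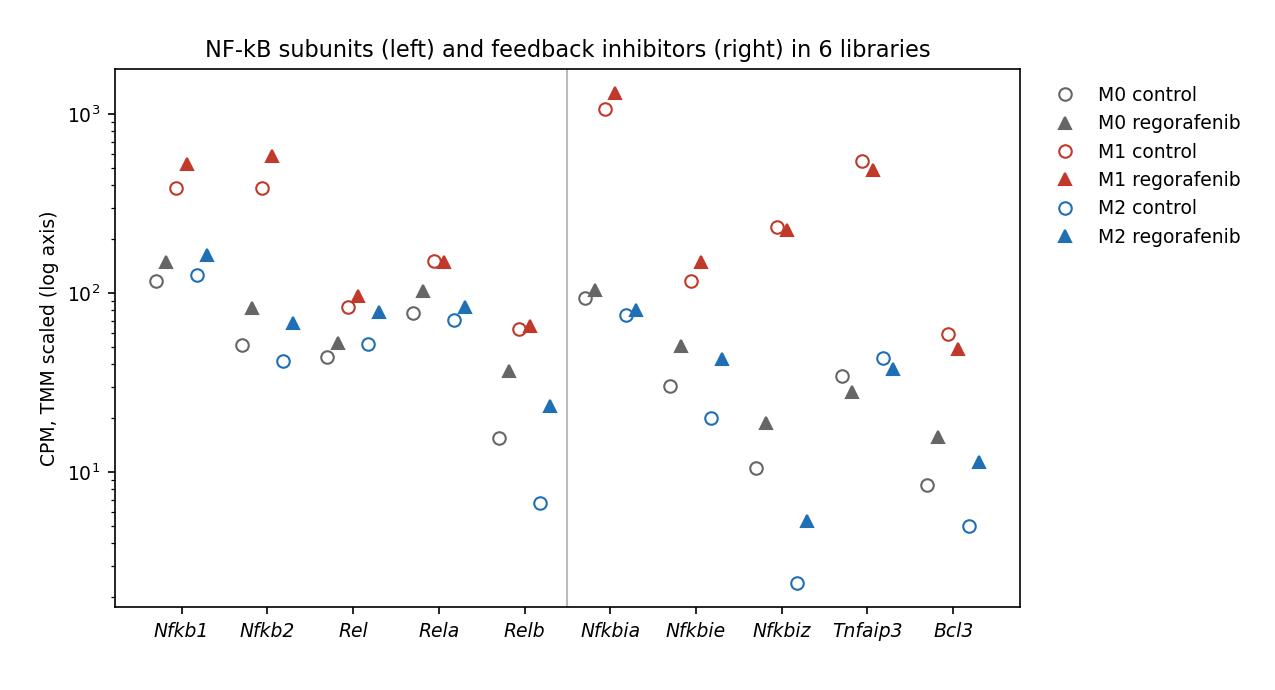
Level of each gene (CPM on a log axis) in the 6 libraries, 1 point per library, with open circles for control, filled triangles for regorafenib and color for the state. The M1 libraries are the highest for all 10 genes, and the M2 control library is the lowest for 7 of them.

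Polarization with IFN-γ and LPS raised the mRNA of all 10 genes. Nfkb2, which encodes p100 and its product p52, was at 51.5 CPM in control M0, 388 CPM in control M1, 82.2 CPM in M0 with regorafenib and 582 CPM in M1 with regorafenib. Nfkb1, the gene of p105 and p50, was at 117, 384, 149 and 528 CPM in the same 4 libraries. Every M1 value of these genes lay above every M0 value. Relb, the partner of p52, rose from 15.6 to 63.2 CPM without regorafenib, whereas with the drug it was already at 36.5 CPM in M0 and reached 65.6 CPM in M1. The genes of c-Rel and p65 had the smallest ratios without regorafenib. Rel went from 43.8 to 84.1 CPM without and from 52.7 to 96.3 CPM with regorafenib. Rela went from 77.6 to 151 CPM without and from 103 to 150 CPM with it.

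The feedback inhibitors included the genes with the largest ratios. Nfkbiz, which encodes the nuclear protein IκBζ, was at 10.5 CPM in control M0 and 234 CPM in control M1, and at 18.7 and 226 CPM with regorafenib. Tnfaip3, the gene of the ubiquitin-editing enzyme A20, went from 34.4 to 546 CPM without and from 27.9 to 489 CPM with the drug. Nfkbia, which encodes the rapidly resynthesized IκBα, went from 93.5 to 1068 CPM and from 104 to 1303 CPM. These 3 genes had the highest M1 to M0 ratios without regorafenib, 22.3-fold, 15.8-fold and 11.4-fold. Bcl3, a nuclear IκB protein that binds p50 and p52 and can also activate transcription, went from 8.43 to 59.1 CPM and from 15.8 to 48.5 CPM. Nfkbie, the gene of IκBε, went from 30.2 to 117 CPM and from 50.8 to 149 CPM.

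In the control libraries 8 of the 10 genes were past 2-fold higher in M1 than in M0, beside 17.4% of the 14917 genes that reached 10 counts in 1 or more libraries, and 0 were past 2-fold lower, beside 20.1%. With regorafenib 7 of the 10 were past 2-fold higher, beside 16.9%, and 0 lower, beside 21.9%. Scaled by total counts instead of TMM, the share of higher genes among all those past 2-fold fell from 46.4% to 30% without and from 43.6% to 28.6% with the drug, while the members' count past 2-fold stayed within 1.5 times of the main one. All 10 ratios had a 95% counting interval above 0 in both comparisons, beside 35.5% of all genes without and 34.9% with regorafenib. The median log2 ratio of the 10 genes was 2.41 without and 1.72 with the drug, and that of all genes was −0.05 and −0.09. The genes whose M1 to M0 log2 ratio was lower with the drug by the largest amounts were Bcl3 (2.81 and 1.62), Relb (2.02 and 0.85) and Nfkbiz (4.48 and 3.60), each of which was higher in M0 with regorafenib than in control M0. With 1 library per group this difference has no test.

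A fit over all 6 libraries with state and treatment as additive terms (edgeR's quasi-likelihood test, Benjamini-Hochberg adjusted) leaves residual degrees of freedom, which the comparisons of 1 library with another do not. In it the libraries of the other treatment stand in for replicates, which they are not, and the residual holds any difference in the action of regorafenib between states together with culture and technical variation, which cannot be told apart. All 10 genes rose in M1 at an adjusted p under 0.05, beside 18.5% of 14110 genes that rose and 18.2% that fell. The estimates ran from Rela (log2 fold change 0.81, SE 0.17, adjusted p = 0.0147) to Nfkbiz (4.13, SE 0.33, adjusted p = 0.000892), with Tnfaip3 at 4.12 (SE 0.18, adjusted p = 0.00026). Relb had the highest adjusted p of the 10 in this edgeR fit (1.56, SE 0.42, adjusted p = 0.0323). Without the M0 control library 8 genes passed, Rela (0.66) and Relb (1.39) not, and without the M1 control library 9 passed, Relb (0.76) not. Without the M1 regorafenib library the estimate for Relb was 2.22.

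After polarization with IL4, 7 of the 10 genes were lower than in M0 and 3 were higher, in the control pair and in the regorafenib pair. Nfkbiz was at 10.5 CPM in control M0 and 2.41 CPM in control M2, a ratio of 4.35-fold lower, and at 18.7 and 5.33 CPM with regorafenib, 3.5-fold lower. Relb was at 15.6 CPM in control M0 and 6.71 CPM in control M2 (2.32-fold lower), and at 36.5 and 23.3 CPM with the drug (1.56-fold lower). Bcl3 was at 8.43 and 5.01 CPM without and 15.8 and 11.4 CPM with regorafenib, and Nfkbie was at 30.2 and 20.1 CPM without and 50.8 and 43.1 CPM with it. In the other direction, Tnfaip3 was at 34.4 CPM in control M0 and 43.5 CPM in control M2, and at 27.9 and 37.5 CPM with regorafenib. Rel was at 43.8 and 51.8 CPM without the drug and at 52.7 and 78.6 CPM with it. A20 and c-Rel mRNA thus stood above M0 in M2 while the mRNA of the nuclear IκB proteins and of RelB stood below it.

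Nfkbiz and Relb were the 2 genes past 2-fold lower in M2 without regorafenib, beside 8.82% of all genes, and Nfkbiz was the 1 gene past 2-fold lower with it, beside 5.79%. None of the 10 was past 2-fold higher in either, beside 5.23% without and 5.7% with the drug. In both comparisons the counting interval lay above 0 for Nfkb1, Rel and Tnfaip3, beside 27.5% of all genes without and 23.9% with regorafenib, and below 0 for the other 7 genes, beside 26.9% and 26.4%. The median log2 ratio of the members was −0.30 without and −0.29 with the drug. In the additive fit 0 of the 10 genes passed an adjusted p of 0.05 by edgeR, beside 0.198% of all genes, and 2, Nfkbiz and Tnfaip3, had an unadjusted p under 0.05, beside 9.28%. Nfkbiz had a log2 fold change of −1.93 (SE 0.32, edgeR's adjusted p = 0.0984). It passed by DESeq2, without a filter on low counts, and without any 1 of the libraries M0 control, M1 control, M1 regorafenib or M2 regorafenib.

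**Figure D2:**
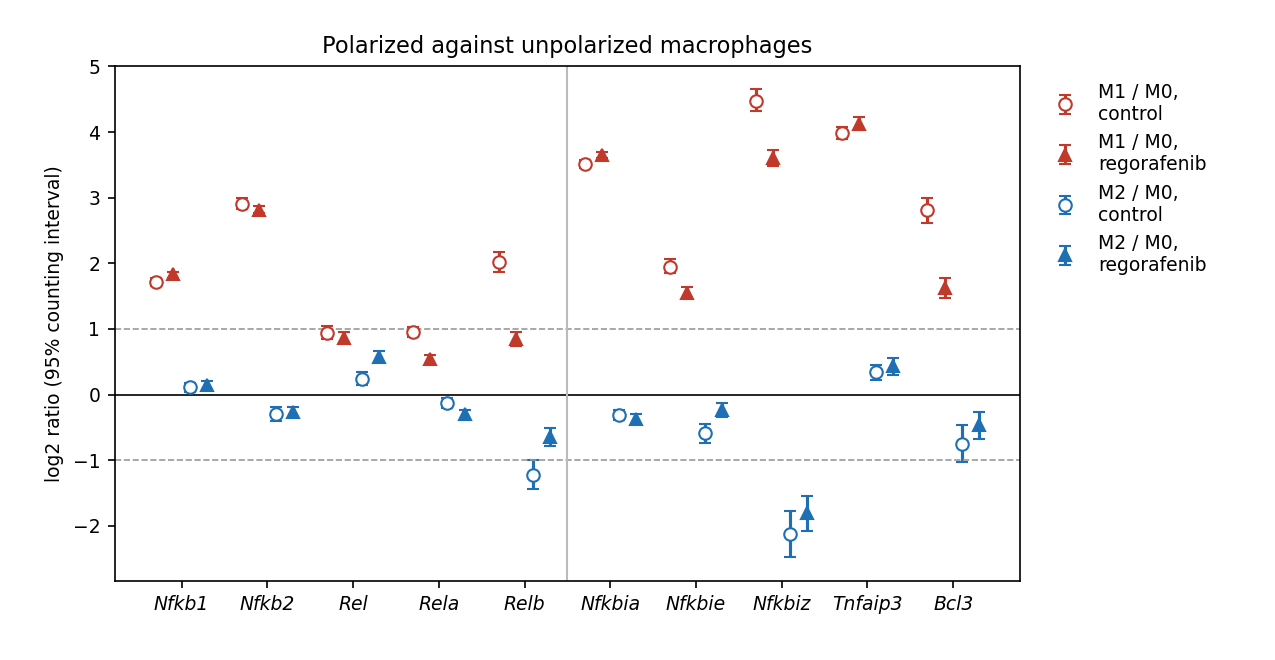
Log2 ratio of M1 to M0 (red) and of M2 to M0 (blue) for each gene, with open circles without and filled triangles with regorafenib, bars for 95% counting intervals and dashed lines at 2-fold. All M1 ratios are above 0, and the M2 ratios run from −2.12 for Nfkbiz without the drug to 0.58 for Rel with it.

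Regorafenib was set against control within each state to ask whether the drug changed the mRNA of the circuit. In M0 and M2 the same 9 genes were higher with regorafenib and Tnfaip3 was lower. Relb had the largest ratio in both, though in M0 its interval overlapped that of Bcl3 (log2 interval 0.69 to 1.12). Relb was at 15.6 CPM in control M0 and 36.5 CPM with the drug (479 and 1202 counts, 2.34-fold higher, log2 interval 1.07 to 1.38). In M2 it was at 6.71 and 23.3 CPM (245 and 652 counts, 3.47-fold higher, log2 interval 1.58 to 2.01). Nfkb2, whose product pairs with RelB, was at 51.5 and 82.2 CPM in M0 (1.6-fold) and at 42 and 68.1 CPM in M2 (1.62-fold). Nfkb1 was 1.27-fold higher in M0 and 1.31-fold higher in M2, Rela 1.33-fold and 1.18-fold, and Rel 1.2-fold and 1.52-fold.

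Of the inhibitors, Nfkbie and the nuclear IκB genes Bcl3 and Nfkbiz had the largest regorafenib ratios in M0 and M2. Bcl3 was at 8.43 and 15.8 CPM in M0 (259 and 520 counts, 1.87-fold) and at 5.01 and 11.4 CPM in M2 (183 and 318 counts, 2.27-fold). Nfkbiz was at 10.5 and 18.7 CPM in M0 (1.78-fold) and at 2.41 and 5.33 CPM in M2, where it rested on 88 and 149 counts (2.21-fold, log2 interval 0.75 to 1.54). Nfkbie was at 30.2 and 50.8 CPM in M0 (1.68-fold) and at 20.1 and 43.1 CPM in M2 (2.15-fold). By contrast Nfkbia, the inhibitor with the highest level, was 1.11-fold higher in M0 and 1.06-fold higher in M2. Tnfaip3 was at 34.4 and 27.9 CPM in M0 (log2 ratio −0.30, interval −0.43 to −0.17) and at 43.5 and 37.5 CPM in M2 (−0.21, interval −0.33 to −0.10). The counting intervals of Bcl3, Nfkbiz and Nfkbie overlapped in each of these states, so that these 3 were not ordered.

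In M1, 4 of the genes that were higher with the drug in M0 and M2 did not have an interval above 0, Relb, Nfkbiz, Bcl3 and Rela. Relb stood at 63.2 CPM in control and 65.6 CPM with regorafenib (log2 ratio 0.05, interval −0.05 to 0.15), Nfkbiz at 234 and 226 CPM (−0.05, interval −0.11 to −0.00) and Bcl3 at 59.1 and 48.5 CPM (−0.28, interval −0.39 to −0.17). Rela stood at 151 and 150 CPM (−0.00, interval −0.07 to 0.06). Nfkb2 was at 388 and 582 CPM (log2 ratio 0.59, interval 0.55 to 0.62) and Nfkb1 at 384 and 528 CPM (0.46, interval 0.42 to 0.50). Nfkb1 and Nfkb2, the genes of the precursor subunits, had a ratio in M1 within 0.11 log2 units of those in M0 and M2. Tnfaip3 was lower with regorafenib in M1 also, at 546 and 489 CPM (−0.16, interval −0.20 to −0.12). Nfkbia was at 1068 and 1303 CPM and Nfkbie at 117 and 149 CPM. The log2 ratio of Nfkbia was larger in M1 (0.29) than in M0 (0.15) and M2 (0.09). That of Nfkb1 was larger in M1 (0.46) than in M0 (0.35). Its interval in M1 overlapped that in M2 (0.39, interval 0.33 to 0.44).

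**Figure D3:**
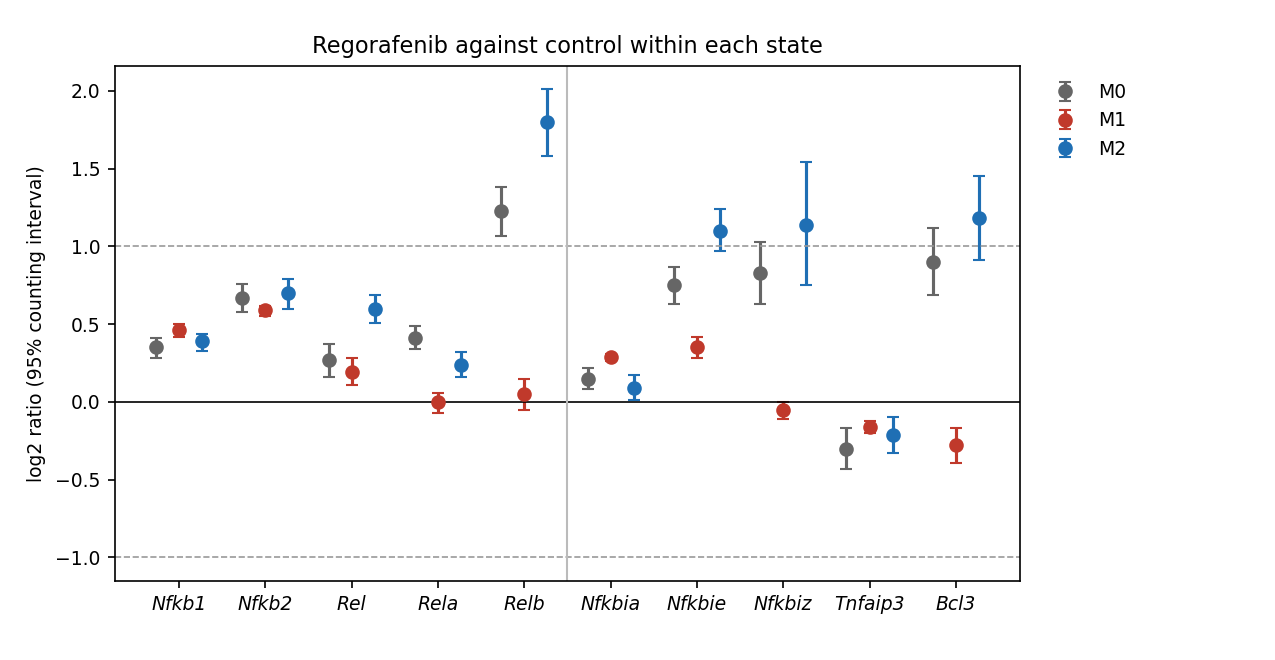
Log2 ratio of regorafenib to control for each gene in M0 (gray), M1 (red) and M2 (blue), with bars for 95% counting intervals and dashed lines at 2-fold. Relb is at 1.23 in M0, 0.05 in M1 and 1.80 in M2, and Tnfaip3 is below 0 in all 3 states.

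Past 2-fold higher with regorafenib were 1 of the 10 genes in M0 (Relb), beside 9.85% of all genes, 0 in M1, beside 3.3%, and, in M2, 4 (Relb, Nfkbie, Nfkbiz and Bcl3), beside 7.43%. Across the scaling and pseudocount alternatives the lowest log2 ratio of Nfkbiz in M2 was 0.89, which is not past 2-fold. None of the 10 genes was past 2-fold lower, beside 11.7%, 4.64% and 5.81% in M0, M1 and M2. The counting interval lay above 0 for 9 of the 10 genes in M0 and in M2 and for 5 in M1, beside 32.7%, 26.1% and 15.9% of all genes. It lay below 0 for 1 gene in M0 and in M2 (Tnfaip3) and for 3 in M1 (Nfkbiz, Tnfaip3 and Bcl3), beside 33.7%, 31.6% and 21.3%. The median log2 ratio of the members was 0.54 in M0, 0.12 in M1 and 0.65 in M2, and that of all genes was between −0.02 and −0.01. Counting intervals are narrow for genes with many counts and do not cover differences between cultures. Cell type lists also differed with the drug. The 4 fibroblast genes summed to 3.06 and 9.8 CPM in M0 and 3.34 and 5.43 CPM in M2 without and with the drug, and the 8 macrophage genes to 29892 and 48233 CPM in M0 and 21599 and 33341 CPM in M2. Most of the latter sum was Lyz2, at 25969 and 42740 CPM in M0 and 16711 and 27447 CPM in M2, and the median log2 ratio of the 8 genes was 0.61 in M0 and 0.40 in M2. Besides Lyz2, Mertk (1.59 and 1.34), Csf1r (0.85 and 0.68), Aif1 (0.66 and 1.02) and Adgre1 (0.55 and 0.13) were higher in M0 and M2, whereas Fcgr1 and Itgam (−0.45 and −0.74) were lower and Cd68 stood at −0.01 and −0.07. The 6 neutrophil genes, nearly all of it Mpo, summed to 80.7 and 156 CPM in M0 and to 87 and 130 CPM in M2, with Ly6g at 0 throughout. The 4 dendritic cell genes summed to 0.521 and 0.273 CPM in M0 and to 0.603 and 2.5 CPM in M2. Their part in the result was not tested.

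In the additive fit 0 of the 10 genes passed for regorafenib across the 3 states by edgeR, as 0% of all 14110 genes did. At an unadjusted p under 0.05 by edgeR's test 5 of the 10 stood out (Nfkb1, Nfkb2, Rel, Relb and Nfkbie), beside 1637 genes or 11.6%. Nfkb2 had a log2 fold change of 0.67 (SE 0.13, edgeR's adjusted p = 0.302), Nfkbie of 0.75 (SE 0.18, adjusted p = 0.319) and Relb of 1.03 (SE 0.34, adjusted p = 0.402). DESeq2 called 297 genes, Nfkb2 among them and no other member. Without the M1 control library 5 members passed by edgeR, Bcl3, Nfkb2, Nfkbie, Nfkbiz and Relb, beside 4.97% of all genes in that fit, and the same 5 passed without the M1 regorafenib library, beside 5.51%. These fits are not separate checks, since a lone M1 library adds nothing to the treatment estimate and both estimates rest on the M0 and M2 libraries. With both M1 libraries left out, an alternative chosen after seeing the data, 0 members passed and 8 had an unadjusted p under 0.05, beside 32.6% of the 13538 genes in that fit.

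Compared per kilobase of exon, so that genes can be set beside each other, Nfkbia had the highest level of the 10 genes in every library, from 46.9 CPM per kilobase in control M2 to 809 in M1 with regorafenib. Nfkbiz had the lowest level in M0 and M2, between 0.48 and 3.72 CPM per kilobase, whereas in M1 the lowest was Rel at 11.3 and 12.9. Exon length here is the union of all annotated exons, 12.1 kb for Nfkb1, 4.58 kb for Nfkb2 and 3.07 kb for Rela. The length of the expressed transcripts was not measured, so ranks and shares between genes hold only for this divisor. In CPM without it Nfkb1 stood above Rela in every library. Among the 5 subunits Rela led per kilobase in M0 and M2, with 45% of the summed level in control M0 and 45% in control M2. In M1 Nfkb2 led, with 43.8% in control and 50.9% with regorafenib, and Rela held 25.4% and 19.6%. The share of Relb was 7.15% in control M0 and 11.7% with the drug, 3.36% and 8.3% in M2, and 8.43% and 6.77% in M1. In M2 with regorafenib the Relb share was thus close to that of control M1, at a level of 6 against 16.3 CPM per kilobase.

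**Figure D4:**
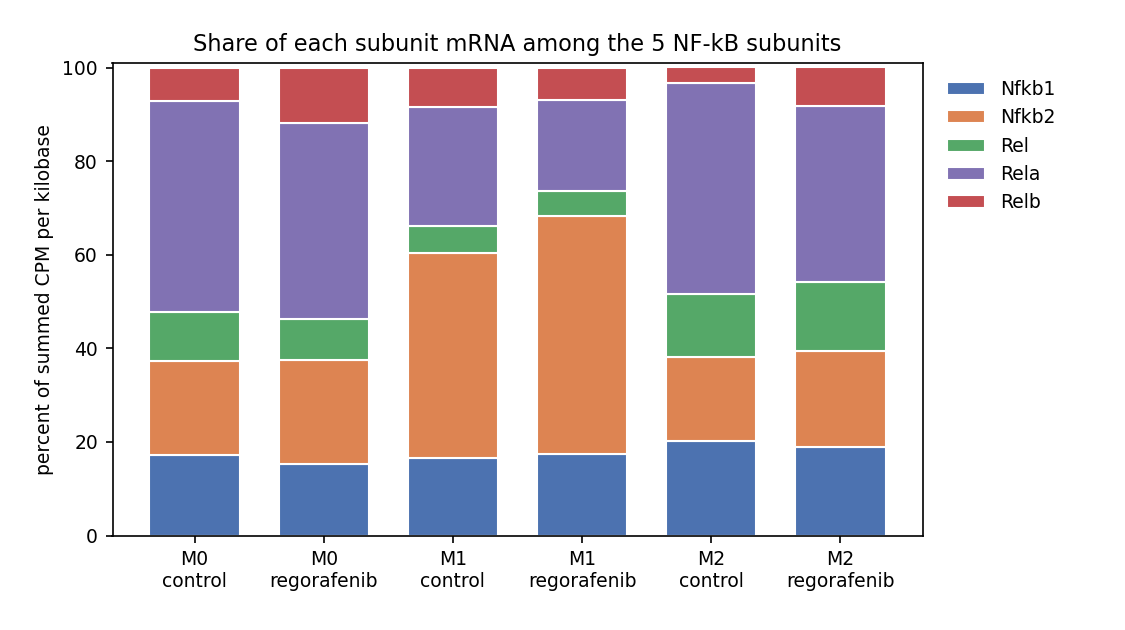
Share of each subunit gene in the summed level of the 5 subunits (percent of CPM per kilobase of exon) in each library. Exon length is the union of all annotated exons, and the shares depend on it. Nfkb2 goes from 20% in control M0 to 43.8% in control M1, and Relb from 3.36% to 8.3% between control and regorafenib in M2.

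The summed subunit level was 56.1 CPM per kilobase in control M0 and 80.3 with regorafenib. M1 stood at 193 and 250, and M2 at 51.4 and 72.3. The 5 inhibitors summed to 78.2 and 95 in M0, whereas M1 stood at 848 and 991 and M2 at 62 and 74.9. The ratio of inhibitor to subunit mRNA was therefore 1.39 in control M0, 4.39 in control M1 and 1.21 in control M2, and it was lower with regorafenib in each state, at 1.18, 3.97 and 1.04. Nfkbia made up between 66.6% and 81.7% of the inhibitor sum. Without and with regorafenib, the level of Relb relative to Rela was 0.159 and 0.279 in M0, whereas M1 stood at 0.332 and 0.345 and M2 at 0.0748 and 0.22. These shares and ratios have no replicate error, and they rest on the same exon lengths.

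Ordered by level, the M1 libraries came first for every gene. The libraries that followed were not the same for all. For Nfkb2, Rela, Relb, Nfkbie and Bcl3 the order was M0 with regorafenib, M2 with regorafenib, control M0 and control M2, so that both drug libraries stood above both controls. For Nfkb1 and Rel it was M2 with regorafenib, M0 with regorafenib, control M2 and control M0. For Nfkbia and Nfkbiz both M0 libraries stood above both M2 libraries. For Tnfaip3 the order below M1 was control M2, M2 with regorafenib, control M0 and M0 with regorafenib. Neighbors within counting error of each other were M0 with regorafenib and control M2 for Rel, M2 with regorafenib and control M0 for Tnfaip3, and both M1 libraries for Rela and for Relb.

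The genes around the circuit were described from 4 lists, whose counts past 2-fold with regorafenib stand beside these shares of all genes. In M0 9.85% were higher and 11.7% lower, in M1 the shares were 3.3% and 4.64%, and for M2 they were 7.43% and 5.81%. Of 21 receptors and adaptors, 1 was past 2-fold higher with regorafenib and 2 were lower in M0, 0 were past 2-fold in M1, and 1 was higher and 1 lower in M2, none of these above the share of all genes. Tnfrsf1b, which encodes TNF receptor 2, an upstream receptor of the non-canonical branch, was at 320 and 909 CPM in M0 (2.84-fold higher) and at 448 and 1158 CPM in M2 (2.58-fold higher), and at 3743 and 3634 CPM in M1. Cd14, the LPS co-receptor, was at 1030 and 499 CPM in M0 (2.06-fold lower). Cd40, a receptor that also feeds the non-canonical branch, was at 7.12 and 1.97 CPM in M2 (260 and 55 counts, 3.62-fold lower), but at 347 and 647 CPM in M1 (log2 ratio 0.90). The list's median log2 ratio was 0.17, −0.04 and 0.08 in M0, M1 and M2. In M1 against M0, 11 of the 21 were past 2-fold higher and 1 lower without regorafenib, beside 17.4% and 20.1% of all genes. With it 8 were higher and 2 lower, beside 16.9% and 21.9%. Cd40 led (175-fold without the drug, on 61 counts in M0). Across the scaling and pseudocount alternatives the higher genes numbered 6 to 12 without the drug. With it they numbered 4 to 9, beside 2 to 4 lower genes. In the additive fit 12 of the 21 rose and 2 fell in M1, beside 18.5% and 18.2% of all genes.

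Of the 11 kinases of the IKK cascade none was past 2-fold with regorafenib in any state or in M2 against M0, with or without the drug, and the list's median log2 ratios of regorafenib to control were 0.19, −0.02 and 0.08. In M1 against M0, 4 were past 2-fold higher without the drug, beside 17.4% of all genes. They were the IKK-related kinases Tbk1 (3.18-fold) and Ikbke (3.13-fold), Map3k8 (2.54-fold), which lies on the path to ERK, and Ikbkg (2.02-fold), the regulatory subunit NEMO. Past 2-fold with the drug were 3 of them, Ikbke, Tbk1 and Ikbkg, beside 16.9% of all genes. Across the alternatives these counts were 2 to 4 without and 1 to 3 with the drug, while the shares given are those at the TMM scaling. The list's median was 0.39 without and 0.28 with the drug, and at its lowest among the alternatives −0.05 and −0.13. In the additive fit 4 of the 11 rose in M1 and 0 fell, beside 18.5% and 18.2% of all genes.

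Of 19 other inhibitors of the pathway, 1 was higher and 1 lower past 2-fold with regorafenib in M0, 0 in M1, and 1 was higher in M2, each at or below the share of all genes. Tnfaip8l2, which encodes the negative regulator TIPE2, was at 37.6 and 114 CPM in M0 (3.03-fold) and at 31.5 and 77.1 CPM in M2 (2.45-fold), but at 34.9 and 35.5 CPM in M1. Tnip3, a binding partner of A20, was at 110 and 37.7 CPM in M0 (2.92-fold lower) and, like Tnfaip3, was not higher with the drug in M1 (218 and 163 CPM). In M2 it stood at 89.8 and 109 CPM. In M1 against M0, 7 of the 19 were past 2-fold higher without regorafenib and 6 with it, beside 17.4% and 16.9% of all genes. In each 1 was lower, beside 20.1% and 21.9%. In the additive fit 10 rose and 1 fell, beside 18.5% and 18.2%. The leading genes were Irak3 (17.5-fold without the drug), which encodes an inhibitor of Toll-like receptor signaling, and Zc3h12a (14.5-fold), the gene of an endonuclease that degrades cytokine mRNA.

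The 30 NF-kB target genes, of which 29 reached 10 counts in a library, lay on both sides of 0 with regorafenib. Of the 25 above 3 counts in a library of M0, 8 were past 2-fold lower, beside 11.7% of all genes, and 3 higher, beside 9.85%. The higher genes included Il6, on 5 and 12 counts and named after its values were seen. The chemokine genes Ccl4 (53.5 and 6.89 CPM, 7.77-fold lower), Cxcl10 (15.2 and 2 CPM, 7.59-fold lower) and Ccl3 (90.1 and 22.1 CPM, 4.09-fold lower) and Plau (278 and 60.6 CPM, 4.58-fold lower), the gene of urokinase, had the largest ratios. In M2, of the 26 above that floor, 5 were past 2-fold lower, beside 5.81%, and 3 higher, beside 7.43%. The higher genes included Csf3, on 0 and 6 counts. The lower genes included Il6, on 12 and 4 counts with a log2 interval of −3.29 to 0.52. Both are named after their values were seen. Over the 29 genes tested, the alternatives gave 3 to 5 lower and 2 to 4 higher. Ccl4 was at 34.9 and 7.33 CPM (4.76-fold lower) and Ccl3 at 47 and 15.5 CPM (3.03-fold lower), while Birc3 was at 18 and 56.3 CPM (3.13-fold higher) and Cd83 at 14.1 and 42.8 CPM (3.04-fold higher). Birc3 encodes the ubiquitin ligase cIAP2, and Cd83 is a maturation marker. Birc3 and Cd83 were also higher in M0, at log2 ratios of 1.39 and 1.47. They are named there after their values were seen.

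In M1, 0 of the 29 targets were past 2-fold lower and 2 were higher, Csf2 (2.71 and 19.2 CPM, 70 and 462 counts, 7.08-fold), the gene of GM-CSF, and Il12b (393 and 1113 CPM, 2.83-fold), the gene of the p40 chain of IL-12. The list's median log2 ratio was −0.10 in M0, 0.40 in M1 and 0.00 in M2, and −0.28, 0.40 and 0.03 without the genes at 3 or fewer counts in both libraries. Ccl4 and Ccl3 thus had log2 ratios of −2.96 and −2.03 in M0 and of 0.63 and 0.66 in M1, on the opposite side of 0. In M1 against M0 without regorafenib, 27 of the 29 targets were past 2-fold higher, beside 17.4% of all genes. The 2 lower, beside 20.1%, were Plau and Bcl2l1 (named after their values were seen). With the drug 26 were higher, beside 16.9%, and 1 lower, beside 21.9%. In the additive fit 27 rose and 1 fell, beside 18.5% and 18.2% of all genes. The median log2 ratio of that list was 7.16 with the drug and 5.32 without it, the latter 4.84 with counts under 3 set to 3. Csf3, with 3393 counts in control M1 and 0 in control M0, was 1345-fold higher with 3 counts set for the 0. The lower end of its log2 counting interval was 10.09. None of the 4 lists had a gene past the threshold for M2 or for regorafenib in the additive fit by edgeR. In control M2 against control M0, Cxcl10 was 11.6-fold, Marcksl1 9-fold, Cxcl2 6.5-fold and Tnf 5.1-fold lower, and 6 of the 29 targets were past 2-fold lower, beside 8.82% of all genes. With regorafenib in both libraries the log2 ratios of these 4 genes were −1.90, −1.92, −0.80 and −0.63, those of Cxcl2 and Tnf not past 2-fold.

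**Figure D5:**
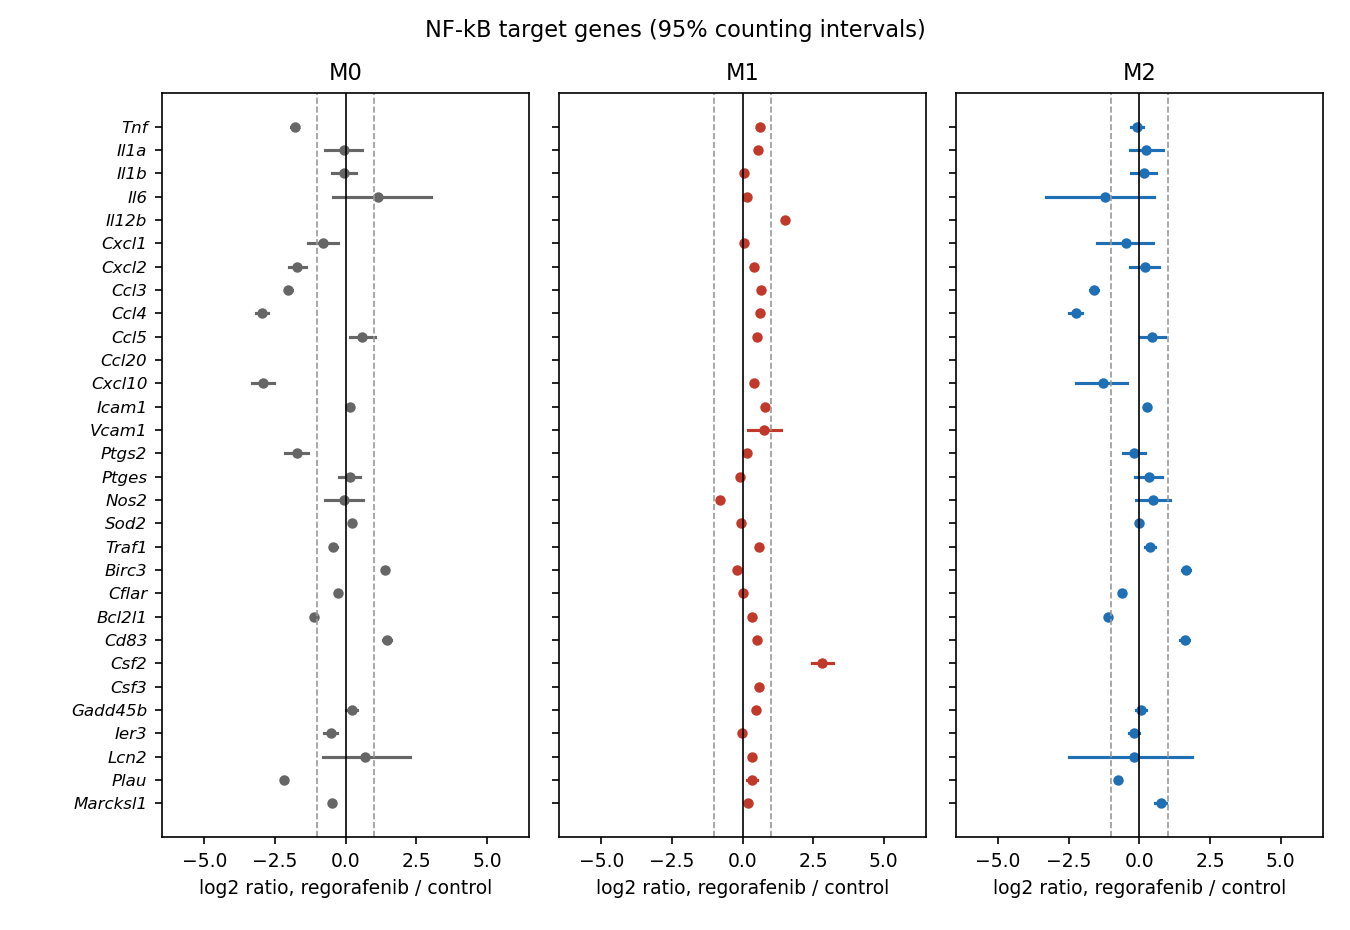
Log2 ratio of regorafenib to control for the 30 NF-kB target genes in M0, M1 and M2, with lines for 95% counting intervals and dashed lines at 2-fold. Genes with 3 or fewer counts in a library of the pair are not drawn (5, 1 and 5 genes). Ccl3 and Ccl4 lie left of 0 in M0 and M2 and right of it in M1, and Birc3 and Cd83 lie right of 0 in M0 and M2.

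Across the 6 libraries, the patterns of the 10 genes were compared with those of 11836 genes by the root-mean-square distance between log2 CPM profiles centered on their own mean, as a description over points that share libraries. Nearest to Relb were Rassf4 (distance 0.146) and Ppard (0.166), at 329 and 853 CPM, and at 15.2 and 40.9 CPM, in M0 without and with regorafenib. Nearest to Nfkb2 were Csf1 (0.101), the gene of the macrophage growth factor, and Il17rd (0.173), and nearest to Nfkb1 were St7 (0.122) and Irak2 (0.141), the latter an adaptor kinase of the receptor list. Nfkbie lay nearest to Gmfg (0.063) and Agtrap (0.161), and Bcl3 to Gm2011 (0.118) and C1ra (0.158). Nfkbia lay nearest to Dgkh (0.183) and Wfdc17 (0.186), and Tnfaip3 to Clcf1 (0.094) and Gm21188 (0.176). Nfkbiz had the most distant neighbors, Aoah (0.226) and Il13ra1 (0.277), and its nearest member, Nfkbia, was at 0.969. Rela lay nearest to Ctif (0.052) and 9030407P20Rik (0.053), and Rel to Zfp609 (0.108) and 9130023H24Rik (0.114). The closest pair of members was Rel and Rela (0.295), followed by Relb and Nfkbie (0.334) and Bcl3 and Nfkbie (0.335).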

How the data were processed

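Read counts per gene of 6 BMDM libraries were used as the authors deposited them. Per their methods and the labels' processing notes, reads of stranded mRNA libraries were trimmed with cutadapt 2.4, aligned to GRCm38 with STAR 2.7.2a and counted by STAR on Gencode M19. The deposited counts are whole numbers and were not normalized. Which strand column was taken is not stated.

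Gene names and exons came from Gencode M21, which named 53229 of 54446 IDs with their version and 1180 without it. Counts were scaled with TMM (edgeR 4.0.16, R 4.3.3). A log2 ratio took 0.5 for a count of 0, and its 95% interval is exact (binomial, given the sum of both counts) and covers counting error only. Ratios past 2-fold were counted over genes that reached 10 counts in 1 or more libraries, in 7 comparisons of 1 library with another, none with a test. The additive fit (state and treatment, filterByExpr) used edgeR's quasi-likelihood test at a Benjamini-Hochberg adjusted p under 0.05 on 14110 genes. Its standard error is the fold change over the root of the F statistic. Its p-values measure only the spread between these libraries, which may be technical. The fit was run on simulated counts that held no effect of treatment, which checks the code and not the estimates for these libraries. DESeq2 1.42.0 was an alternative, as were other scalings, no filter, and leaving out each library. A library with 3 or fewer counts was taken as at the floor. Exon length is the union of a gene's exons. Other computations used Python 3.11.15.

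The genes and lists were chosen with earlier results of these data known. From a list, at most 4 genes past 2-fold that had 100 counts or more in the higher of both libraries were named per comparison, by size, besides those said to be chosen after their values were seen and list genes named to set a level beside another comparison. The 2 nearest non-members by profile were named for each gene.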

Additional observations from a re-analysis of the deposited data

Results flagged for a closer look

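The regorafenib to control ratio of 2 of the 10 genes had opposite signs in different states, with counting intervals off 0 at the TMM scaling and the same signs under all 5 scaling and pseudocount alternatives. Bcl3 was higher with the drug in M0 and M2 and lower in M1, and its log2 ratio in M0 exceeded that in M1 by 1.19 and that in M2 exceeded it by 1.47. Nfkbiz was higher with the drug in M0 and M2 and lower in M1, by an amount close to 0 (interval −0.11 to −0.00). By total counts that ratio was −0.01, nearer to 0 than the interval is wide, so its sign in M1 is not set apart from 0 there. The corresponding differences at the TMM scaling were 0.89 and 1.20. With 1 library per group these differences were not tested.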

How the results depend on the processing

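The numbers of the 10 genes past 2-fold in the 7 comparisons stayed within 1.5 times of the reported ones under total counts, DESeq2 size factors, upper-quartile factors, TMM over the compared pair and 1 CPM added to both values. Of the member ratios, that of Rela with regorafenib in M1 was the one to change sign (−0.02 to 0.04). Scaling by total counts shifted the median of all genes by −0.44 in M1 against M0 without and −0.41 with regorafenib. Counts of all genes past 2-fold moved by over 1.5 times with 1 CPM added: with regorafenib to 1495 in M0, 154 in M1 and 565 in M2, in M1 against M0 to 3669 without and 3692 with the drug, and in M2 against M0 to 780 and 451. With no filter beyond 1 count in a library of the pair they were 6688, 4139, 5275, 9577, 9484, 5387 and 4953 in the same order, since low genes then entered.

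In the additive fit, the members called for M2 against M0 went from 0 to 1 (Nfkbiz) with DESeq2 and without a filter, and ranged from 0 to 1 when a library was left out. Those called for regorafenib went from 0 to 1 (Nfkb2) with DESeq2, and ranged from 0 to 5 when a library was left out, with 5 when either M1 library was absent. Those called for M1 against M0 ranged from 8 to 10. The cause of these changes was not tested. All genes called by edgeR for regorafenib numbered 0 with all libraries, 333 without a filter, 386 with the M0 and M2 libraries alone, 726 without M1 control and 814 without M1 regorafenib. All genes called for M2 against M0 numbered 28, and 416 by DESeq2. The labels give no replicate numbers, and the additive fit compares the treatments within each state. Nfkbiz in M2 rests on 88 and 149 counts, which gives the widest interval among the members.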
